A study of Homo sapiens with 10 samples.

Results

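The guanylate-binding proteins GBP1, GBP2, GBP3, GBP4 and GBP5 were examined by RNA-Seq in MV4-11 cells with and without a knockout of IRF8. They were chosen by gene symbol, so that 5 of the 19590 genes of the table of normalized counts were taken, and all 5 passed the filter on low values. MV4-11 is an established human cell line of myeloid leukaemia (AML). The control group held 4 libraries of cells that had received the control vector, and the IRF8 KO group held 4 libraries of cells carrying a CRISPR knockout of IRF8. Both groups were lentivirally infected, puromycin-selected cultures of the same line, with no interferon treatment named in the labels. The RNA of the knockout group came from clones grown from single cells, and the labels do not say which clone gave which library. The paper describes fewer than 4 such MV4-11 clones, made with more than 1 guide RNA. If only these were used, some of the 4 knockout libraries share a clone. A difference between clones or guide RNAs and one between replicates thus cannot be told apart. The paper does not describe the control cells as cloned, so an effect of cloning and one of the knockout cannot be told apart either. The same numbers, 1 to 4, name replicates in both groups.

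Guanylate-binding proteins are large GTPases of the dynamin superfamily and are among the genes that interferon-gamma induces most strongly. They assemble on the membranes of intracellular bacteria and of the vacuoles of parasites, and help to bring inflammatory caspases to them. Interferon-gamma acts through its receptor, the kinases JAK1 and JAK2 and factors that bind GAS elements, and raises IRF1, which binds interferon-stimulated response elements (ISREs). IRF8, a myeloid member of the IRF family, binds ISREs with partners such as IRF1, and composite ETS-IRF sites together with PU.1 (SPI1). The human genes lie side by side on chromosome 1, in the order GBP3, GBP1, GBP2, GBP7, GBP4, GBP5 and GBP6.

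The start regions of these genes are shown because the knockout removes a factor that binds ISREs. The RefSeq promoter table (GRCh38.p14, 250 bases before to 50 after the annotated start) matched 3 of the 5 members, GBP1, GBP3 and GBP4, and not GBP2 and GBP5. It was searched on both strands for the ISRE core (GAAA, any bases at the next 2 positions, then GAAA), for the ETS-IRF composite, which is the same but begins with GGAA, and for the GAS motif TTCNNNGAA. Each of these 3 promoters held the ISRE core, on the strand opposite to the gene, while 3.57% of all 35116 promoters of the same length held it. The windows of 120 bases around it are given here, 5′ to 3′ on the strand of the gene, with the ISRE core in capitals.
GBP1, chr1:89065308-89065427, minus strand: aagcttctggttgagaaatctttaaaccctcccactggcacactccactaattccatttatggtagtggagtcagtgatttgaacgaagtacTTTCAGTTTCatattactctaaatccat
GBP3, chr1:89022837-89022956, minus strand: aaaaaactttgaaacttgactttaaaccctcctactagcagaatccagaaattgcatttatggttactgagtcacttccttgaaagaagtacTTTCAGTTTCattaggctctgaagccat
GBP4, chr1:89198919-89199038, minus strand: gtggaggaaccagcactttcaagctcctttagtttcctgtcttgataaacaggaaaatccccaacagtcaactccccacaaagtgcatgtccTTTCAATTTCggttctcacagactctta

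Counted from the annotated start, the ISRE core lay at positions -127 to -118 in GBP1, at 3 to 12 in GBP3 and at -4 to 6 in GBP4. GBP1 and GBP3 had the same 10 letters there, and GBP4 had TTTCAATTTC. Over the windows aligned on this element, GBP1 and GBP3 were equal in 84 of 120 bases (70%). GBP4 was equal to GBP1 in 32 and to GBP3 in 36 of them. The GAS motif in the form searched, TTCNNNGAA, was found in GBP3, as TTCCTTGAA at positions -15 to -7, and in 7.66% of all promoters. The ETS-IRF composite was in none of the 3 promoters and in 2.82% of all promoters. The promoters of GBP6 and GBP7 held none of the 3 motifs. These are exact matches of letters, and no binding was measured here. GAS or other sites that depart from the letters searched would be missed, so a promoter without a match may still hold such a site.

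Depth ran from 39560072 to 65519047 reads on genes per library. Expression was compared by limma, with log2(normalized count + 1) as the measure and 13110 genes whose mean reached 10 normalized counts, and adjusted p-values are Benjamini-Hochberg adjusted over all of these. A gene was called at an adjusted p below 0.05. This held for 18.2% of all tested genes, 9.56% lower and 8.65% higher in the IRF8 KO libraries. With the replicate number as a block it held for 3769 of the 13110 genes, 1912 lower and 1857 higher. The log2 scale with a pseudocount understates the change of low genes. Exact permutation tests were two-sided and could not go below p = 0.029 with 4 libraries in each group. The labels do not say whether replicates were separate cultures, and some knockout libraries may share a clone. The p-values thus measure the spread between these libraries, which may be technical.

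The targeted gene, IRF8, had 36891, 15192, 43016 and 22535 normalized counts in control replicates 1 to 4 and 6377, 2401, 12903 and 7820 in IRF8 KO replicates 1 to 4. Its transcript was thus lower in all knockout libraries but still counted in each, at 25.1% of the control mean (log2 fold change -2.11 with an SE of 0.51, limma adjusted p = 0.022). The reads do not show whether these transcripts carry the edit. The myeloid markers CD33, FLT3, PTPRC and CSF1R were expressed in both groups. Of 10 markers of myeloid cells, 5 were called higher in the IRF8 KO cells, namely PTPRC, CD4, ITGAM, CD68 and MPO (8 with the replicate number as a block, 7 higher and 1 lower), and their summed level over the list ran from 74698 to 90691 normalized counts in the control and from 125461 to 362218 in the knockout libraries. The part of this shift in the results on GBP genes was not tested. In bulk RNA, fewer cells that express a gene and less of its RNA per cell cannot be told apart.

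Of the 5 guanylate-binding proteins, GBP4 fell in the IRF8 KO libraries and GBP1, GBP2, GBP3 and GBP5 did not pass the test in either direction. The log2 fold changes ran from -4.08 for GBP4 to 1.07 for GBP1, with a median of -0.73 against -0.00094 over all tested genes. The cutoffs of the study (p below 0.01 and a 2-fold or larger change) were applied here to limma p-values before adjustment. The count was also 1 of 5, where 10.9% of all tested genes passed, 6.12% lower and 4.78% higher. The study took its p-values from DESeq2 and reported more genes than the 1429 that passed here. The groups did not overlap in 1 of the 5 genes, GBP4, which held for 25.3% of all tested genes, 13% lower and 12.3% higher in the knockout. The estimate was below 0 for GBP2, GBP4 and GBP5, and for 50.1% of all tested genes.

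**Figure D1:**
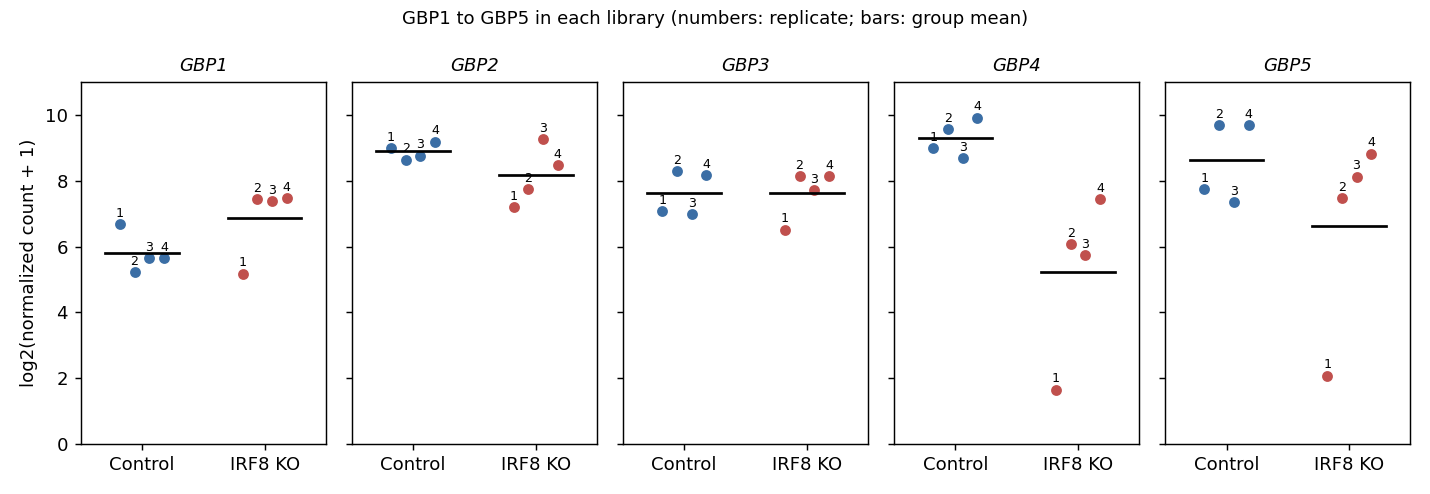
Level of each guanylate-binding protein as log2(normalized count + 1) on the y axis in 4 control (blue) and 4 IRF8 KO (red) libraries. The numbers name the replicate and the bars are group means of the log2 values. The groups are apart for GBP4, and IRF8 KO replicate 1 is the lowest knockout library for each of the 5 genes.

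GBP4 encodes a guanylate-binding protein that has also been described as a brake on interferon induction by viral infection. It had 514, 766, 416 and 974 normalized counts in control replicates 1 to 4. In IRF8 KO replicates 1 to 4 it had 2.13, 66.9, 52.8 and 172. All 4 knockout libraries were below the lowest control, and replicate 1, with 2 reads, stood far below the other knockout libraries. Within both groups, replicates 2 and 4 were above replicates 1 and 3. The control libraries had a mean of 667 ± 252 and the IRF8 KO libraries one of 73.5 ± 71.4 (SD, n = 4 each), or 11.0% of the control mean. The log2 fold change was -4.08 (SE 1.07, 95% interval -6.50 to -1.65, limma adjusted p = 0.030, exact permutation test p = 0.029).

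The size of the GBP4 change rested in part on IRF8 KO replicate 1, and its call on several other libraries. Without that library the log2 fold change was -2.88 (limma adjusted p = 0.0063) and the mean of the other 3 knockout libraries was 97.3 ± 65.2 (SD, n = 3), or 14.6% of the control mean. When 1 of the 8 libraries was left out in turn, the call was kept in 3 cases, and it was lost without any one of the 4 control libraries or without IRF8 KO replicate 3, with log2 fold changes between -4.28 and -3.87 and limma adjusted p-values between 0.053 and 0.074. GBP4 was lower in the knockout in all 4 same-numbered pairs of libraries, at 8.74%, 12.7% and 17.7% of the control value for numbers 2, 3 and 4. For number 1 the ratio was 0.415%, with a 95% counting interval of 0.0501% to 1.504%.

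GBP1, the best studied member of the family, which coats cytosolic bacteria, had 102, 36.2, 49.4 and 49.0 normalized counts in control replicates 1 to 4. In IRF8 KO replicates 1 to 4 it had 35.2, 174, 167 and 177. Replicates 2, 3 and 4 of the knockout were above every control library, and replicate 1 was below every control library. The means were 59.2 ± 29.3 and 138 ± 68.8 (SD, n = 4 each), which gave a log2 fold change of 1.07 with an SE of 0.56 (limma adjusted p = 0.23). The 95% interval of -0.21 to 2.35 reached up to 5.11-fold higher expression, so that neither a difference nor its absence was shown.

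The GBP1 result turned on replicate 1. Without IRF8 KO replicate 1 the log2 fold change was 1.64 (limma adjusted p = 0.021), and without replicate 1 of both groups it was 1.93 (limma adjusted p = 0.0066). In the same-numbered pairs, GBP1 in the knockout was 34.4% of the control for number 1 and 480%, 337% and 362% for numbers 2, 3 and 4. With all 8 libraries it was called by none of limma, edgeR (adjusted p = 0.15) or DESeq2 (adjusted p = 0.082).

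GBP5, which has been linked to the assembly of the NLRP3 inflammasome, had 216, 828, 163 and 830 normalized counts in control replicates 1 to 4. In IRF8 KO replicates 1 to 4 it had 3.20, 177, 279 and 454. The controls fell apart by replicate number, with 2 and 4 far above 1 and 3, and the knockout range overlapped them. The means were 509 ± 370 and 228 ± 189 (SD, n = 4 each), which gave a log2 fold change of -2.003 (SE 1.38, 95% interval -5.15 to 1.14, limma adjusted p = 0.37). Without IRF8 KO replicate 1, where 3 reads were counted, the log2 fold change was -0.48 (limma adjusted p = 0.71). In the same-numbered pairs GBP5 was lower for numbers 1, 2 and 4 and higher for number 3, at 171% of the control.

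GBP2, a member whose protein carries a prenyl group and sits on membranes, had 512, 399, 436 and 587 normalized counts in control replicates 1 to 4. In IRF8 KO replicates 1 to 4 it had 146, 213, 620 and 353. The knockout libraries with numbers 1, 2 and 4 were below every control, and number 3 was above every control. The means were 483 ± 83.2 and 333 ± 210 (SD, n = 4 each), so that the spread was larger among the knockout than among the control libraries. The log2 fold change was -0.73 (SE 0.41, 95% interval -1.66 to 0.19, limma adjusted p = 0.26). Without IRF8 KO replicate 3 it was -1.10, with a limma adjusted p of 0.055.

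GBP3, the closest relative of GBP1 in the family, had 134, 312, 126 and 286 normalized counts in control replicates 1 to 4. In IRF8 KO replicates 1 to 4 it had 90.6, 281, 211 and 281. The group means were 215 ± 98.4 and 216 ± 89.9 (SD, n = 4 each). The log2 fold change of GBP3 was 0.0013, with an SE of 0.45 (limma adjusted p = 0.999) and a 95% interval of -1.03 to 1.03, so that a difference of up to 2.04-fold in either direction lay within the interval. When the replicate number was entered as a block, the SE was 0.25 and the interval -0.58 to 0.58. As for GBP5, control libraries 2 and 4 were above 1 and 3. Reads that fall on stretches shared by GBP1 and GBP3 can be split or dropped in counting, and the treatment of such reads is not stated in the labels or methods.

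**Figure D2:**
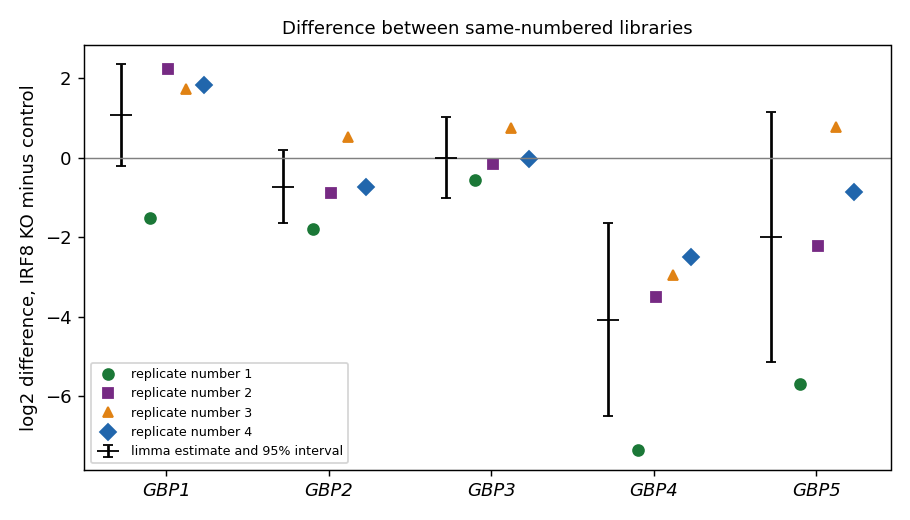
Difference in log2(normalized count + 1) between the IRF8 KO and the control library of the same replicate number (symbols), with limma's estimate and its 95% interval (black), for GBP1 to GBP5. GBP4 is below 0 for each of the 4 numbers, from -7.36 to -2.49, while GBP1 is below 0 for number 1 and above 0 for the other numbers.

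Whether the members differed from each other in their response was tested with the log2 ratio of 2 members within each library, in which the scale factor of a library cancels apart from the pseudocount. Of the 10 pairs, 5 had the smallest possible exact permutation p of 0.029, which became 0.057 after Benjamini-Hochberg adjustment over the 10 pairs and so failed the correction. These were GBP4 against each of the other 4 members, and GBP1 against GBP2. From control to IRF8 KO, the log2 ratio of GBP1 to GBP4 rose from -3.50 to 1.64. The ratio of GBP3 to GBP4 went from -1.68 to 2.40, and that of GBP2 to GBP4 from -0.40 to 2.94. GBP4 also fell relative to GBP5, by -2.07 in the log2 ratio, and this was -2.40 without IRF8 KO replicate 1. The ratio of GBP1 to GBP2 differed by 1.80 on the log2 scale. When 1 of the 8 libraries was left out in turn, GBP1 against GBP4 and GBP3 against GBP4 had an exact permutation p of 0.029 each time, which is also the smallest that 3 against 4 libraries allow. For the other 3 pairs it was 0.057 in some of these cases. These were any control library for GBP2 against GBP4, control replicates 1, 3 and 4 and IRF8 KO replicate 3 for GBP4 against GBP5, and control replicate 4 and IRF8 KO replicates 2 and 4 for GBP1 against GBP2. The ratios of GBP2 to GBP3 (exact permutation p = 0.20), GBP2 to GBP5 (exact permutation p = 0.49), GBP3 to GBP5 (exact permutation p = 0.14), GBP1 to GBP3 (exact permutation p = 0.20) and GBP1 to GBP5 (exact permutation p = 0.057) did not pass the test.

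For none of the members was the order of the knockout libraries that of the IRF8 transcript, though for GBP2 only replicates 1 and 2 changed places. Whether the levels go together was not tested. The paper reported IRF8 protein to be absent from its knockout cells by Western blot. The IRF8 counts of the knockout libraries therefore do not measure IRF8 protein or its activity. IRF8 was lowest in IRF8 KO replicate 2, with 2401 normalized counts, where GBP4 had 66.9. In replicate 1, where GBP4 and GBP5 were nearly lost, IRF8 had 6377. The highest IRF8 value of the knockout group was in replicate 3, which held the highest GBP2 value and the second-lowest GBP4 value. Among the controls, IRF8 was higher in replicates 1 and 3 and GBP3, GBP4 and GBP5 were higher in replicates 2 and 4.

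The other genes of the cluster were barely expressed. GBP7, a close relative of GBP4, had 12, 15, 11 and 11 reads in control replicates 1 to 4 and 0, 3, 0 and 6 reads in IRF8 KO replicates 1 to 4. It was below the filter of a mean of 10 normalized counts and was not tested with the other genes, and its groups did not overlap (11.2 ± 1.47 and 2.19 ± 2.82 normalized counts, SD, n = 4 each, exact permutation test p = 0.029). A count of 0 in a library allows up to 3 reads. GBP6 had at most 5 reads in any library. In the fit with no filter on low values, GBP6 and GBP7 were both tested and 1 of them was called lower. GBP4 and GBP7 are thus neighbours, both lower in every knockout library than in any control library, and whether reads were shared between them was not tested.

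The genes around the cluster were compared in the same way. Of the 10 genes of the table on each side, 15 were tested, and their log2 fold changes lay between -0.25 and 0.36 with a median of 0.098. With limma 0 of these 15 were called, against 1 at an unadjusted p below 0.05, and edgeR called 0 and DESeq2 1. The nearest tested neighbours were KYAT3, before GBP3, with a log2 fold change of 0.36, RBMXL1, which overlaps KYAT3, with -0.061, and LRRC8B, beyond GBP6, with 0.16. The 1289 tested genes of chromosome 1 outside the 5 members had a median of -0.012.

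**Figure D3:**
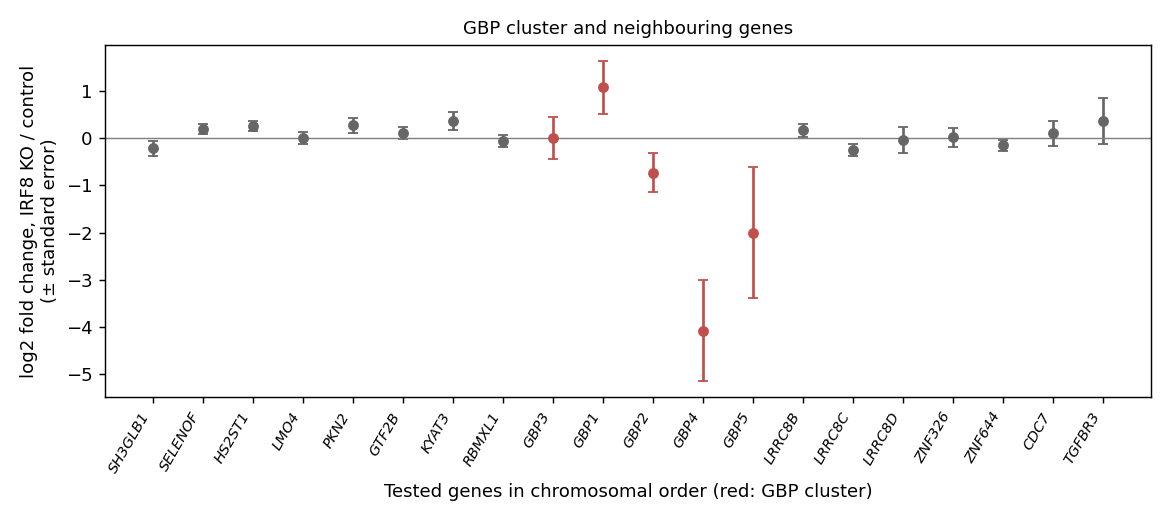
Log2 fold change of IRF8 KO over control with its standard error (y axis) for the tested genes of the GBP cluster (red) and of 10 genes on each side (grey), in chromosomal order. The neighbours lie between -0.25 and 0.36 and the cluster between -4.08 and 1.07, with GBP6 and GBP7 left out as untested.

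Other large or interferon-inducible GTPases were compared with the family. Of 10 listed, 9 were in the table and 7 were tested. Among all tested genes 18.2% were called, and among these 7 only IRGM, an immunity-related GTPase that acts in autophagy. It rose, with 38.6, 86.3, 25.8 and 101 normalized counts in control replicates 1 to 4 and 143, 297, 176 and 306 in IRF8 KO replicates 1 to 4 (log2 fold change 1.99 with an SE of 0.47, limma adjusted p = 0.020). Each knockout value was above each control value. With the replicate number as a block, 2 were called, IRGM higher and IRGQ lower (log2 fold change -0.50, limma adjusted p = 0.014 with the block and 0.087 without). The antiviral dynamin-like GTPases MX1 (log2 fold change 0.57, limma adjusted p = 0.36) and MX2 (0.23, limma adjusted p = 0.58) and the atlastins ATL1, ATL2 and ATL3 did not pass the test.

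The upstream pathway was present except for the ligand. IFNG had 0 reads in all 8 libraries, which allows up to 3 reads per library. The receptor subunit IFNGR1 had 4346 ± 274 normalized counts in the control and 5938 ± 1093 in the IRF8 KO libraries (SD, n = 4 each, log2 fold change 0.43, limma adjusted p = 0.068). The groups did not overlap for IFNGR1, which did not pass the test. Of the 10 tested receptors, kinases and STATs, 1 was called, where 18.2% of all tested genes were. It was IFNAR2, a subunit of the type I interferon receptor. IFNAR2 fell from 1776 ± 436 normalized counts in the control to 1055 ± 213 in the knockout libraries (SD, n = 4 each, log2 fold change -0.74, limma adjusted p = 0.044). When the replicate number was a block, IFNAR1 was also called lower (log2 fold change -0.35, limma adjusted p = 0.044 with the block and 0.16 without), and with DESeq2 3 were called, 1 lower and 2 higher.

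Among 8 transcription factors and coactivators of the response, IRF8 and CIITA were called, both lower, where 9.56% of all tested genes were called lower. IRF8 is the targeted gene itself, so its call says nothing about the rest of the list. CIITA is the master regulator of MHC class II genes. CIITA had between 1889 and 2013 normalized counts in the control libraries, and 135, 1297, 195 and 259 in IRF8 KO replicates 1 to 4 (log2 fold change -2.68, limma adjusted p = 0.016). IRF1, a main inducer of GBP genes in this pathway, had 1689 ± 527 and 2549 ± 878 (SD, n = 4 each, log2 fold change 0.57, limma adjusted p = 0.26), and was called higher with the replicate block (limma adjusted p = 0.048). SPI1, the partner of IRF8 at composite sites, did not pass the test (log2 fold change 0.29, limma adjusted p = 0.40). Of 7 inhibitors of interferon signaling, the phosphatases PTPN6 (log2 fold change -0.82, limma adjusted p = 0.0041) and PTPN1 (-0.70, limma adjusted p = 0.0049) fell, and SOCS1, which is itself induced by the pathway, had a log2 fold change of 0.99 that did not pass (limma adjusted p = 0.14). With the block, 4 inhibitors were called, the same phosphatases lower and SOCS1 (limma adjusted p = 0.0041) and SOCS3 (limma adjusted p = 0.038) higher.

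Of 38 other genes induced by interferon-gamma, 32 were tested, and 7 rose and 1 fell. Over all tested genes, 8.65% were called higher and 9.56% lower. The list's median log2 fold change was 0.38, against -0.00094 over all tested genes. The restriction factor TRIM22 rose from 326 ± 156 to 1544 ± 410 normalized counts (SD, n = 4 each, log2 fold change 2.33, limma adjusted p = 0.0027), and IL15RA, APOL1, B2M, PARP9, FCGR1A and TAPBP rose by log2 fold changes from 0.56 to 1.68. CD74, the invariant chain of MHC class II, fell (log2 fold change -2.02, limma adjusted p = 0.014). Once the replicate number was entered as a block, 15 were called in place of 8, of which 11 rose and 4 fell. The block also raised the count over all tested genes, from 2387 to 3769. Of the genes called with the block alone, the larger differences went in both directions. The chemokine CXCL10 had a log2 fold change of 1.98 (limma adjusted p = 0.0073 with the block and 0.093 without), the adhesion molecule ICAM1 one of -1.94 (limma adjusted p = 4.5e-04 with the block and 0.091 without) and XAF1 one of -1.77 (limma adjusted p = 0.0022 with the block and 0.16 without). The lists were written from general knowledge with earlier results of these data known, and the counts describe them only.

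Of 9 listed partners and effectors of the GBP proteins, 4 rose and 1 fell, where 8.65% of all tested genes were called higher and 9.56% lower. CASP1, the caspase of canonical inflammasomes, rose from 1298 ± 57.0 to 3077 ± 282 normalized counts (SD, n = 4 each, log2 fold change 1.24, limma adjusted p = 2.0e-04). CASP4, which senses lipopolysaccharide on GBP-coated bacteria (log2 fold change 0.86, limma adjusted p = 0.0051), and GSDMD, the pore-forming protein that it cleaves (0.63, limma adjusted p = 0.019), also rose. FURIN, a protease that GBP2 and GBP5 inhibit, rose (log2 fold change 1.13, limma adjusted p = 0.029). NLRP3, the sensor linked to GBP5, fell from 3576 ± 500 normalized counts to 1513 ± 457 (SD, n = 4 each, log2 fold change -1.28, limma adjusted p = 0.0048). Of 5 enzymes that attach or process the prenyl group on which GBP1, GBP2 and GBP5 depend for membrane binding, PGGT1B (log2 fold change 0.82, limma adjusted p = 0.0026) and FNTB (0.53, limma adjusted p = 0.049996) rose. The call of FNTB lay at the threshold. With the replicate block PIM1, a kinase that phosphorylates GBP1, was also called higher (log2 fold change 0.79, limma adjusted p = 0.0046 with the block and 0.23 without).

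**Figure D4:**
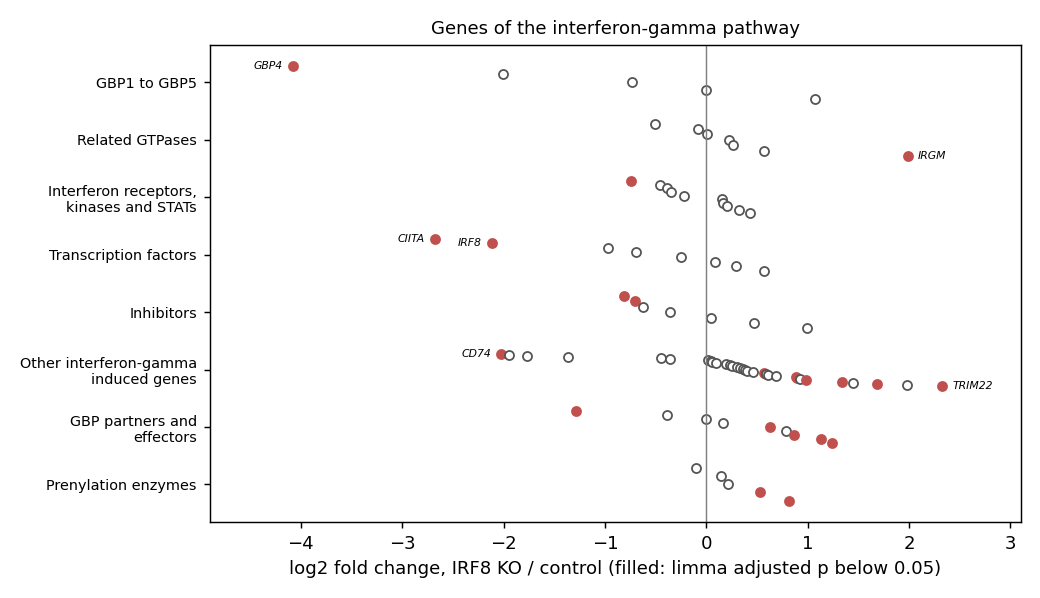
Log2 fold change of IRF8 KO over control (x axis) for the tested genes of each list (y axis), with 1 point per gene, filled at a limma adjusted p below 0.05. GBP4, at -4.08, is the lowest of the genes drawn, and the 7 filled points to the right among the other interferon-gamma induced genes reach 2.33 (TRIM22).

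Genes of other cell types were looked for, since T and NK cells make interferon-gamma. CD3D and CD3E had at most 0.96 and 0.94 normalized counts in any library. The T and NK list of 6 genes had a summed level of 2547 to 3097 in the control and 1058 to 2688 in the knockout libraries, nearly all of it NKG7 (2709 ± 257 and 1728 ± 701, SD, n = 4 each, limma adjusted p = 0.089), which was called lower with the replicate block (limma adjusted p = 0.039). The B cell list of 3 genes summed to 177 to 492 in the control and 167 to 919 in the knockout libraries, with MS4A1 at 0 in every library. Most of this sum was CD79A, which did not pass the test (log2 fold change 0.60). The other tested gene of the list was called lower, both without and with the replicate block. The sum thus does not stand for each gene of the list. The 7 markers of other cells summed to 5644 to 14588 and 2093 to 10112, nearly all of it ITGA2B (log2 fold change -1.09, limma adjusted p = 0.19, and 0.0044 with the block), with HBB, PF4 and KRT19 at 0 in every library. The part of these genes in the results on GBP genes was not tested.

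For each member, the 3 genes with the most similar course over the 8 libraries were found by the root mean square difference of log2(normalized count + 1), each gene being centred on its own mean. For GBP4 they were OAS2, an interferon-induced sensor of double-stranded RNA, with a difference of 0.62, SORL1 (0.70) and ELAVL4 (0.71). OAS2 had 142, 171, 104 and 270 normalized counts in control replicates 1 to 4 and 0, 60.2, 14.9 and 35.4 in IRF8 KO replicates 1 to 4, so that it too was lowest in IRF8 KO replicate 1. For GBP5 they were MLXIPL (0.65), ADRA1B (0.81) and SLC9A9 (0.82). GBP3 was closest to RAB33A (0.12), the complement gene C2 (0.14) and POU6F1 (0.16), which were likewise lower in control replicates 1 and 3 than in 2 and 4. GBP2 was closest to TUFT1 (0.18), FZD9 (0.25) and GALM (0.27), and GBP1 to ACTL8 (0.52), FIBCD1 (0.54) and the cytidine deaminase APOBEC3D (0.54). The distances are larger for GBP1, GBP4 and GBP5 than for GBP2 and GBP3, and are given as a description over 8 libraries that share their normalization.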

How the data were processed

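The authors aligned RNA-Seq reads of MV4-11 cells with RNA-Star to the GENCODE transcriptome, counted them per gene with featureCounts and normalized them with DESeq2. Which genome build the RNA-Seq used is unclear, since the submitters' notes name more than one. The deposited signal per gene and library is the read count divided by 1 size factor per library. Division by the value of 1 read gave whole reads, within 0.01 reads, for 100% of the values, so depth is known. The 4 columns named wild type were matched by number to the control replicates, and 0 per-sample columns were left out. A second deposited table holds the authors' own comparison (means, log2 fold changes with their errors, Wald scores, p-values) and was not used. The IRF8 ChIP-Seq samples were not analysed here.

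limma 3.58.1 in R 4.3.3 (trended, robust) compared 4 with 4 libraries on log2(normalized count + 1) for genes with a mean of at least 10. Tests were run on simulated counts with the same dispersion for all genes and no effect of replicate number. The split between replicate numbers and the wide spread of some members were not simulated. The members and gene lists were chosen with earlier results of these data known. Named genes are the members, the other family genes, the listed genes, 10 neighbours on each side and the 3 most similar genes per member. Some listed genes are not reported here. WARS1 was found under its older symbol WARS, and GVINP1 was not matched. Alternatives were pseudocounts, filters, scalings, edgeR 4.0.16 and DESeq2 1.42.0 on recovered reads, the replicate block and leaving out libraries. Intervals of read ratios cover counting error only.

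Replicate numbers were checked for pairing. Each library was expressed as its deviation from the mean of its group. Across genes, the control and knockout libraries with numbers 1 to 4 correlated at 0.37, 0.48, 0.45 and 0.50. The number was therefore entered as a block in an alternative fit. The main fit and the exact permutation tests did not pair the libraries. A paired exact test of 4 pairs could not go below p = 0.125. Libraries 1 and 3, and 2 and 4, also correlated across groups at 0.40 to 0.47, while odd with even numbers correlated at -0.47 to -0.37, so the data split 1 and 3 from 2 and 4 more than they single out each number. What a number marks is not stated.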

Additional observations from a re-analysis of the deposited data

Results flagged for a closer look

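In groups of 4 libraries, 1 library lay far from the other 3 by Dixon's test in 4 of 68 groups tested over the members, the other family genes and the called genes of the lists, where chance gives about 1 in 20. GBP1 had 35.2 normalized counts in IRF8 KO replicate 1 and 167 to 177 in the other knockout libraries. CIITA had 1297 in IRF8 KO replicate 2 and 135 to 259 in the other knockout libraries. GBP6 had 4.31 in control replicate 2, against 0.80 to 1.07 in the other controls, and 1.35 in IRF8 KO replicate 3, against 0 in the other knockout libraries, which is a difference of 1 read.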

How the results depend on the processing

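The count of 1 called member held under both other pseudocounts, both other filters, both scalings, edgeR, DESeq2, the study's thresholds and the replicate block. GBP4 was called under each of these, with limma, edgeR or DESeq2 adjusted p-values between 3.8e-04 and 0.035 and log2 fold changes between -4.14 and -3.18. GBP1 fell below the stricter filter and has no value there. With the replicate block, the GBP4 adjusted p was 0.0072, and the block changed the call of no other member. In 12 fits without 1 library or without 1 replicate number of both groups, between 0 and 2 members were called. The log2 fold change then lay between 0.68 and 1.93 for GBP1, -1.15 and -0.38 for GBP2, -0.25 and 0.37 for GBP3, -4.81 and -2.88 for GBP4 and -2.93 and -0.48 for GBP5. GBP4 was not called without numbers 2, 3 or 4 of both groups (log2 fold changes -4.27, -4.45 and -4.60), and GBP1 ran from 0.87 without IRF8 KO replicate 4 to 1.64 without replicate 1. GBP3 was -0.21 without control replicate 3 and, being near 0, also changed sign with upper quartile scaling (-0.012) and edgeR (-0.00044). The called genes of the lists ranged in these 12 fits from 0 to 1 for the related GTPases, 0 to 1 for receptors, kinases and STATs, 0 to 2 for transcription factors, 2 to 3 for inhibitors, 2 to 10 for the other induced genes, 3 to 5 for effectors and 1 to 2 for prenylation enzymes. The replicate block called 2 related GTPases, 2 receptors, kinases and STATs, 4 inhibitors and 15 other induced genes, and also 3 transcription factors, 6 effectors and 8 myeloid markers. DESeq2 called 2 related GTPases and 3 receptors, kinases and STATs, and edgeR called 1 transcription factor. The study's thresholds called 0 receptors, kinases and STATs, 0 inhibitors, 4 other induced genes, 3 effectors and 0 prenylation enzymes. Of prenylation enzymes 1 was called with no filter, with the stricter filter and with both scalings. The transcription factors counted include IRF8, the targeted gene. Over all genes limma called 2387, against 3402 with DESeq2 and 3769 with the block, and between 1115 and 2459 in the 12 fits. The cause of these shifts was not tested, and the 12 fits also held fewer libraries. The differences between members have no paired test that can pass, since 4 pairs allow a smallest exact p of 0.125. GBP4 and GBP5 rest on 2 and 3 reads in IRF8 KO replicate 1, so their log2 values there depend on the pseudocount.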

Other observations

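WARS1, a tRNA synthetase that interferon-gamma induces and that was listed with the other induced genes, did not pass the test between the groups (log2 fold change 0.25, limma adjusted p = 0.88) and varied several-fold between replicate numbers. It had 7169, 40634, 7111 and 40713 normalized counts in control replicates 1 to 4 and 8685, 40766, 9747 and 49204 in IRF8 KO replicates 1 to 4. Replicates 2 and 4 were thus above replicates 1 and 3 in both groups, as they were for IRF1, IRGM, GBP3 and GBP4. The gene was singled out after its values were seen, and what the replicate numbers mark is not stated.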
